A study of Rattus norvegicus with 9 samples.

Results

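The central myelin genes Mbp, Mog, Mag, Mobp, Cnp, Cldn11, Mal, Opalin and Ermn (9 members) were followed through RNA-seq of rat lumbar spinal cord. The members were the rows of the expression table that carry one of these gene names. Each name matched 1 locus, so 9 of the 34890 loci listed were members, and each had at least 100 TPM in each sample. TPM, a transcript abundance, is scaled for transcript length and to the same total in each sample, so levels can be compared between genes, and a gene's TPM also depends on what all other genes take. The tissue was L3-L6 spinal cord of male wild-type Sprague Dawley rats, taken from the ipsilateral side by the study's methods. There were 3 samples in each of 3 groups, which the labels call biological replicates. JA rats were sham-operated and received saline by mouth. SNI rats had a spared nerve injury, in which branches of the sciatic nerve are ligated and cut, and received saline. PLM rats had the same injury and received paeoniflorin at 20.65 mg/ml with liquiritin, compounds of peony and licorice root, and dosing lasted 21 days. The study's methods give liquiritin as 3.98 mg/ml, whereas the labels of PLM replicates 1, 2 and 3 read 3.98, 3.99 and 3.100 mg/ml. SNI versus JA addresses the injury, PLM versus SNI addresses the drug pair in injured rats, and PLM versus JA sets treated injured rats beside sham rats. No group holds uninjured rats given the drugs.

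Central myelin is the multilayered membrane that oligodendrocytes wrap around axons, and it makes up most of the white matter of the spinal cord. Compact layers are held together on their cytoplasmic side by myelin basic protein (Mbp) and by the related small protein Mobp. Mog lies on the outer surface of the sheath, and Mag, a lectin of the immunoglobulin family, lies on the innermost layer that faces the axon. Cnp is a membrane-linked enzyme of the non-compact regions, and Cldn11 forms the tight junctions that seal the spiral of membrane. Mal is a raft-associated proteolipid, Opalin is an oligodendrocyte transmembrane glycoprotein, and Ermn is a cytoskeletal protein of mature oligodendrocytes. Mbp, Mag, Cnp and Mal are also made by Schwann cells, the myelinating cells of peripheral nerve and nerve roots, whereas Mog, Mobp, Cldn11, Opalin and Ermn are characteristic of the central sheath. In bulk tissue, fewer cells of a type and less RNA per cell cannot be told apart.

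Promoter sequences are shown as background, because MYRF and SOX10 are transcription factors known to drive myelin genes. Whether these factors had a part in the members' values was not tested. RefSeq promoter windows of the GRCr8 assembly were available for 7 of the 9 members. The letters CTGGCAC or CTGGTAC, the core that MYRF is known to bind, were searched on both strands in the 250 bases before each start site. They were found in 5 of the 8 windows of these members (those of Mag, Opalin, Cldn11, Mal and Cnp, while Mbp has 2 windows), against 1835 of 33469 windows of the same length over all genes (5.483%). The SOX-type letters AACAAAG, which do not overlap the former motif, were present 5 times before the start of Mobp, and 1 of 33469 promoters (0.002988%), that of Mobp itself, held 5 or more. The threshold of 5 was Mobp's own count, so its passing was fixed in advance. Its copies follow one another closely in the sequence below. At least 1 copy was present in 5.139% of promoters and in 2 members, Mobp and Cnp. A further SOX-type motif, ACAATGG, was found in 3.227% of promoters and in a window of Opalin and of Mbp. The motifs were chosen with the sequences in view, and a match is a description and not a shown binding site. The sequences below run along the strand of each gene, and capitals mark the matching letters or their reverse complement.
Mag, chr1:95291102-95291168, minus strand: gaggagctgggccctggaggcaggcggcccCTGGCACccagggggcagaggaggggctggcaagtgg
Opalin, chr1:249858191-249858237, minus strand: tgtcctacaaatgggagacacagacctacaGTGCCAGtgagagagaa
Cldn11, chr2:114149623-114149689, minus strand: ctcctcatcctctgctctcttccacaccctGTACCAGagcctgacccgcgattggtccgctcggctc
Mal, chr3:135341513-135341579, minus strand: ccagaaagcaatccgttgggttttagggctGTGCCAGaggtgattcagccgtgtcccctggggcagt
Cnp, chr10:86011350-86011416, plus strand: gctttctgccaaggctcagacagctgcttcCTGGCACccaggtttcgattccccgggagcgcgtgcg
Mobp, chr8:128746985-128747046, plus strand: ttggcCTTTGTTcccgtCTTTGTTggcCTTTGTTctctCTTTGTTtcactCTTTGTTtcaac
Relative to the start site, the capitals began at base -94 in Mag, -17 in Opalin, -120 in Cldn11, -126 in Mal and -124 in Cnp.

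Some features of the libraries bear on these genes. The 13 protein genes of the mitochondrial genome took 25.3%, 32.8% and 29.3% of TPM in JA replicates 1 to 3, 23.7% to 26.1% in SNI and 31.3% to 32.8% in PLM. The median log2(TPM + 1) of the loci tested was 3.30 to 3.46 in JA, 3.47 to 3.53 in SNI and 3.18 to 3.30 in PLM. Differences of the members were therefore computed on the values as deposited and after centring each sample on its median. The summed level of 10 Schwann cell and peripheral nerve genes ranged from 81.4 to 2278 TPM in JA, from 222 to 1269 in SNI and from 121.7 to 930.6 in PLM. In each comparison 0 of these 10 reached an unadjusted p under 0.05, and 0 were called at an adjusted p under 0.05 with limma on either scale. In SNI versus JA all 10 were above 0 as deposited (median log2 fold change 0.39, all loci 0.12) and 8 after centring (0.27, all loci -0.01). In PLM versus SNI all 10 were below 0 as deposited (median -0.64, all loci -0.21) and 9 after centring (-0.39, all loci 0.04). JA replicate 3, SNI replicate 2 and PLM replicate 3 had the highest sums of their groups.

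Mbp was among the most abundant RNAs of the tissue. It was at 34388, 39893 and 38062 TPM in JA, at 31362, 33094 and 33706 in SNI and at 37602, 36770 and 35043 in PLM, and it ranked 4 among all loci in mean TPM. It made up 83.7% to 86.5% of the members' TPM in the 9 samples. Mobp, the next in order, was 17.3-fold lower in mean TPM in JA, 16.5-fold in SNI and 16.4-fold in PLM. Below it came Cnp, Cldn11, Mag, Mal, Mog, Ermn and Opalin, in the same order of mean TPM in each group. Neighbours in this order did not overlap between samples, except Mal and Mog, which overlapped in JA and in PLM. The members together took 4.39% ± 0.306 of the TPM of JA samples. The share was 3.88% ± 0.115 for SNI and 4.24% ± 0.109 for PLM (errors here are SD over 3 samples). With the mitochondrial genes left out of the total, these shares were 6.23% ± 0.756, 5.15% ± 0.214 and 6.24% ± 0.210. Without Mbp, the other 8 took 0.648% ± 0.0306, 0.609% ± 0.0201 and 0.597% ± 0.0283 of the full total.

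**Figure D1:**
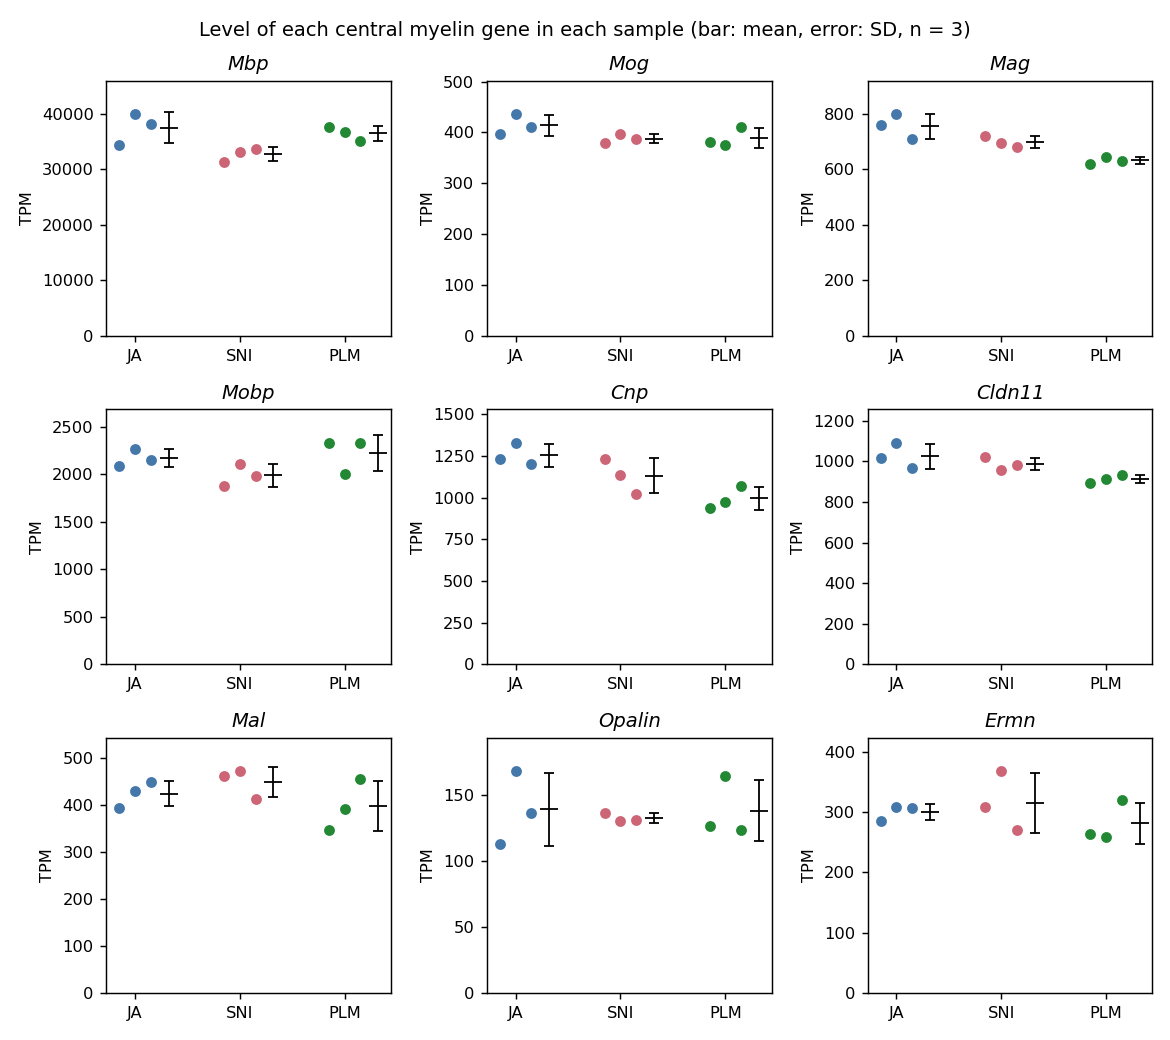
TPM of each of the 9 members in each sample, with the mean and SD of each group of 3 to the right of its points and axes from 0. The highest sample exceeded the lowest by 1.16-fold for Mog and by 1.49-fold for Opalin, the extremes among the members.

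The members varied little. Over the 9 samples the highest level exceeded the lowest by 1.16-fold in Mog to 1.49-fold in Opalin. JA replicate 2 was the highest sample for 6 members (Mbp, Mog, Mag, Cnp, Cldn11 and Opalin). No member passed an adjusted p of 0.05 with limma in a comparison of groups, on either scale (0 of 9 in each). The 54 intervals of 95% for the members (9 genes, 3 comparisons and both scales) lay between -0.66 and 0.66 in log2 fold change, so a change of 1 in log2 fold change was outside each of them.

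In SNI compared to JA, Mbp was lower in each injured sample than in each sham sample. Its mean was 37448 ± 2804 TPM in the sham group and 32721 ± 1216 in the injured group. The log2 fold change of -0.19 (SE 0.092) did not pass the test (adjusted p = 0.614, limma). As deposited, 7 of the 9 members were below 0 and 2 above, with a median of -0.09 (-0.06 without JA replicate 2), while the median of all loci was 0.12 and 76.4% of loci lay above 0. Mal and Ermn, the members above 0, had log2 fold changes of 0.08 and 0.06. With 1 library left out these signs did not all hold, since Ermn was at -0.06 without SNI replicate 2 and Opalin, at -0.05 with all samples, was at 0.09 without JA replicate 2. Mal was at 0.03 without JA replicate 1. After centring, all 9 members were below 0, with a median of -0.21 against -0.01 for all loci. This too depended on single libraries, since centred Mal was at 0.04 without JA replicate 3 and Ermn at 0.03 without SNI replicate 3. With all samples the count below 0 was also 9 of 9 with quantile normalization and without mitochondrial genes. It was 7 of 9, as in the deposited values, with centring over unfiltered loci, where the centring median falls on loci near 0 TPM.

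The largest centred differences in SNI versus JA were those of Mbp at -0.31 (SE 0.143), Cnp at -0.27 (SE 0.0956), Mobp at -0.25 (SE 0.105) and Mag at -0.23 (SE 0.0751), each at an adjusted p of 0.889 with limma. A group of 6 members (Mbp, Mog, Mag, Mobp, Cnp and Cldn11) were lower without overlap after centring, whereas 6.87% of all loci were lower without overlap and 4% higher. As deposited, 1 of 9 (Mbp) was lower without overlap, against 1.66% of loci lower and 12.1% higher. At an unadjusted p under 0.05, the counts were 0 of 9 as deposited and 2 of 9 centred (Mag and Cnp, both lower), where all loci gave 7.1% and 4.83%. At the adjusted threshold 0% of the 15557 loci tested were called on either scale, and 0.688% passed p under 0.05 with an absolute log2 fold change above 1, with 0 of 9 members among them.

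The sham samples were not alike. JA replicate 1 had centred Mbp, in log2 units, at 14.98, near the SNI samples at 14.78, 14.90 and 14.94, while JA replicates 2 and 3 were both at 15.29. The mean of the 9 centred members, relative to the mean of all samples, was -0.11 in JA replicate 1, 0.16 and 0.13 in the other JA samples, and -0.15, -0.08 and -0.16 in SNI. Without JA replicate 1 the centred median of the members was -0.29, and 0 of 9 were still called.

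In PLM compared to SNI, the members had both signs as deposited, with 4 above 0 and 5 below. The compact myelin genes Mbp and Mobp had the highest values. Mbp was at 32721 ± 1216 TPM in SNI and at 36472 ± 1305 in PLM, without overlap, a log2 fold change of 0.16 (SE 0.062, adjusted p = 0.123, limma). Mobp was at 1871, 2107 and 1982 TPM in SNI and at 2328, 2003 and 2331 in PLM, a log2 fold change of 0.16 (SE 0.082, adjusted p = 0.205, limma), and the groups overlapped through PLM replicate 2. Both differences were higher than those of 93.6% of loci.

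Mag had the opposite sign. It was at 719.6, 696.6 and 679.2 TPM in SNI and at 619.2, 645.0 and 631.3 in PLM, with no overlap. Its log2 fold change was -0.14 (SE 0.0495, adjusted p = 0.0911, limma), the smallest adjusted p of any member in the main comparisons. Cldn11 was at 1019, 959.1 and 982.6 TPM in SNI and at 894.3, 911.1 and 934.9 in PLM, again without overlap (log2 fold change -0.11, adjusted p = 0.158, limma). Cnp and Mal, with log2 fold changes of -0.18 each, overlapped between the groups. So did Ermn at -0.16, Opalin at 0.05 and Mog at 0.01. Single libraries decided these values, with Ermn at -0.04 without SNI replicate 2, Opalin at -0.09 without PLM replicate 2 and Mog at -0.04 without PLM replicate 3. Mal ran from -0.28 without PLM replicate 3 to -0.09 without PLM replicate 1. Cnp ran from -0.25 without SNI replicate 3 to -0.12 without SNI replicate 1.

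These signs have to be read against a shift of the whole table, in which the median locus lay at -0.21 (log2 fold change, PLM versus SNI) and 14.95% of loci were above 0. The members' median was -0.11 as deposited, and -0.04 without SNI replicate 2. After centring, all 9 members were above 0, with a median of 0.14 against 0.04 for all loci, but other scalings gave other signs. With quantile normalization 4 members (Mag, Cnp, Cldn11 and Mal) were below 0, Mbp was at 0 and the median was 0. Quantile normalization gives loci of equal rank equal values, and Mbp ranked 4 by mean TPM in both groups. Its 0, and with it the median, was therefore set by its rank and says nothing about its level. Without mitochondrial genes 3 (Cnp, Mal and Ermn) were below 0. With centring over unfiltered loci 5 (Mag, Cnp, Cldn11, Mal and Ermn) were below 0, with a median of -0.04. There the centring median falls on loci near 0 TPM, and the signs were those of the deposited values. Mog, Mobp and Opalin were above 0 under each of these scalings. Mobp and Mbp had the largest centred differences, at 0.41 (SE 0.102, adjusted p = 0.141) and 0.40 (SE 0.106, adjusted p = 0.151) with limma. They were followed by Opalin at 0.29 (adjusted p = 0.275) and by Mog at 0.25 (adjusted p = 0.129). Mag, lower as deposited, was higher after centring at 0.10 (adjusted p = 0.404, limma), so its direction depends on the scale, as do those of Cldn11, Cnp, Mal and Ermn.

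Of the 9 members, 2 were lower (Mag and Cldn11) and 1 higher (Mbp) without overlap in PLM versus SNI as deposited, where 41.9% of loci were lower and 1.59% higher. After centring 6 were higher without overlap (Mbp, Mog, Mag, Mobp, Cldn11 and Opalin), against 14.1% of loci higher and 9.73% lower. An unadjusted p under 0.05 was reached by 2 of 9 as deposited (Mbp and Mag), with 37.1% of loci, and by 5 of 9 after centring (Mbp, Mog, Mobp, Cldn11 and Opalin, all higher), with 16.9% of loci. At the adjusted threshold 13.9% of the 15474 loci tested were called as deposited and 0.814% after centring, with 0 of 9 members in both. Past p under 0.05 with an absolute log2 fold change above 1 were 1.65% of loci and 0 of 9 members.

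**Figure D2:**
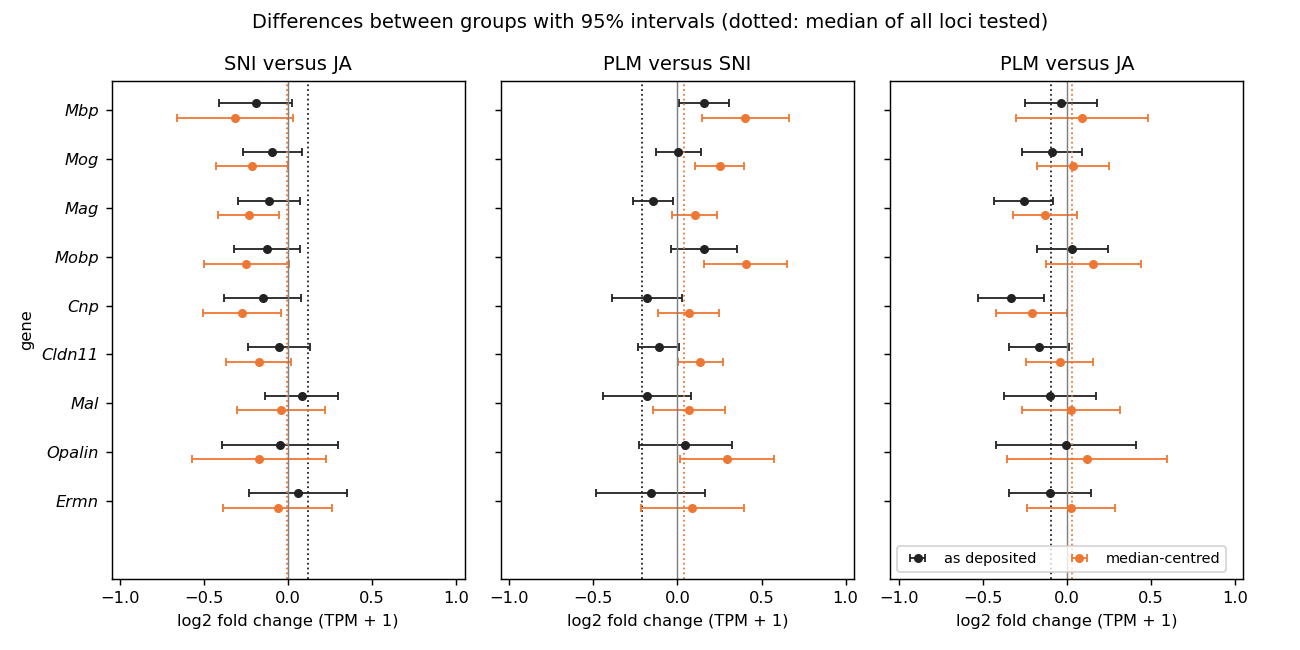
Log2 fold change of each member (log2(TPM + 1)) in the 3 comparisons, as deposited (black) and median-centred (orange), with 95% intervals from limma, and with dotted lines at the median of all loci tested on each scale. Centring moves the members from a median of -0.11 to 0.14 in PLM versus SNI and from -0.09 to -0.21 in SNI versus JA.

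In PLM compared to JA, Cnp and Mag were the members furthest from 0 as deposited. Cnp was at 1230, 1330 and 1202 TPM in JA and at 939.1, 976.5 and 1072 in PLM, so the treated samples were all lower. Its log2 fold change was -0.33 (SE 0.0829, adjusted p = 0.342, limma) as deposited and -0.21 (SE 0.0874, adjusted p = 0.502, limma) after centring. Mag was at 759.4, 798.2 and 709.2 TPM in JA, above the 3 PLM samples, with log2 fold changes of -0.26 (SE 0.0735, adjusted p = 0.345, limma) and -0.13 (adjusted p = 0.601, limma). Mbp differed by -0.04 as deposited and 0.09 after centring, and Mobp by 0.03 and 0.16, with overlapping samples.

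The members' median in PLM versus JA was -0.10 as deposited, the same as that of all loci at -0.10, and 0.03 after centring, where that of all loci was 0.03. Centred over unfiltered loci it was -0.06. Without PLM replicate 3 it was -0.18 as deposited and -0.03 centred. As deposited, 3 of 9 were lower without overlap (Mag, Cnp and Cldn11) and 0 higher, against 15.7% of loci lower and 2% higher. After centring it was 2 of 9 (Mag and Cnp), against 6.93% lower and 9.51% higher. An unadjusted p under 0.05 was reached by 2 of 9 as deposited (Mag and Cnp) and by 0 of 9 after centring, where 11.8% and 9.98% of loci did. Of the 15349 loci tested, 0.0195% and 0.013% were called at the adjusted threshold, and 0.938% passed p under 0.05 with an absolute log2 fold change above 1, with 0 of 9 members among them. Each group enters 2 of the 3 comparisons, so the differences of a member in these comparisons are not independent.

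The ratio of 2 members within a sample does not change when all its TPM are multiplied by the same factor, but quantile normalization does change it. In PLM versus SNI the log2 fold changes under quantile normalization were 0 for Mbp and -0.08 for Mag, against 0.16 and -0.14 as deposited. The 0 of Mbp was set by its unchanged rank. Mbp to Mag was 45.3, 49.98 and 53.7 in JA, 43.6, 47.5 and 49.6 in SNI, and 60.7, 57.0 and 55.5 in PLM. The treated samples thus lay above all 6 others. Mobp to Cnp was 1.69, 1.71 and 1.79 in JA, 1.52, 1.86 and 1.94 in SNI, and 2.48, 2.05 and 2.17 in PLM, again with PLM above both groups. The mean Mbp to Mag ratio was 1.23-fold that of SNI in PLM, and the mean of Mbp to Cldn11 was 33.2 ± 2.10 in SNI and 39.96 ± 2.31 in PLM. In SNI versus JA, Mbp to Mal was 87.3, 92.9 and 85.0 in JA and 68.0, 70.3 and 81.8 in SNI, lower without overlap.

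Of the 36 pairs of members, the ratio was without overlap in 3 for SNI versus JA (8.33%), in 10 for PLM versus SNI (27.8%) and in 10 for PLM versus JA (27.8%). Among the 635628 pairs of the 1128 loci with at least 100 TPM, the shares were 13.9%, 39% and 20.2%. The members' share was therefore below that of abundant loci in the first 2 comparisons and above it in the last. The pairs share genes, so they are not independent, and the ratios were computed after the values had been seen.

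**Figure D3:**
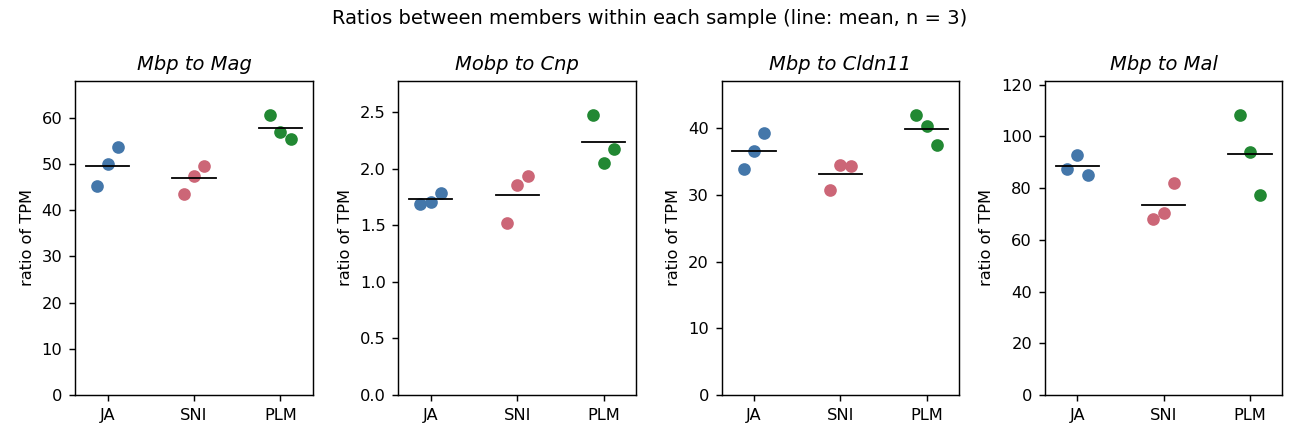
Ratio of TPM between members within each sample for 4 pairs, with a line at the mean of each group of 3 and axes from 0. For Mbp to Mag and for Mobp to Cnp the 3 PLM samples lie above the 6 others.

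The members varied together from sample to sample, some closely and others loosely. Over the 9 samples, the centred level of each member was compared with the mean of the other 8. Pearson's r was 0.952 for Mog, 0.878 for Mbp, 0.871 for Cldn11 and 0.795 for Mobp. It was 0.727 for Mag, 0.645 for Opalin, 0.578 for Cnp, 0.508 for Mal and 0.496 for Ermn. For deviations from the group means it was 0.514 (Opalin) to 0.887 (Mog). The values come from the same 9 libraries and share their centring, and they are given as a description. Loci not on the oligodendrocyte lists had r as high with the mean of all 9 members, such as Ptma at 0.953 and Aif1 at 0.952. Varying together was thus not particular to the myelin genes.

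The mean centred level of the members was lowest in JA replicate 1 and the 3 SNI samples, at -0.16 to -0.08, and it was 0.05 to 0.16 in the other 5 samples. The same 4 samples had the lowest mitochondrial share, at 23.7% to 26.1%, against 29.3% to 32.8% in the others. The summed level of the 16 neuron markers was 6302, 3334 and 3761 TPM in JA replicates 1 to 3. It was 6123 to 7761 TPM in SNI and 5320 to 6122 in PLM, so the same 4 samples had the highest sums, with PLM replicate 2 less than 1 TPM below SNI replicate 2. The 12 astrocyte markers also had their highest sums in these 4 samples, at 3946 TPM in JA replicate 1 and 3441 to 3821 in SNI, against 3085 and 1969 in JA replicates 2 and 3 and 1614 to 1978 in PLM. The 16 neuron markers were all above 0 in SNI versus JA on both scales, against 76.4% of all loci as deposited and 48.6% centred. On each scale 4 of them reached an unadjusted p under 0.05, where 7.1% and 4.83% of all loci did. At an adjusted p under 0.05, 0 were called with limma. The parts of the mitochondrial share, the neuron markers and the astrocyte markers in the members' differences were not tested. With TPM rescaled to leave out the mitochondrial genes, the members' median was -0.18 in SNI versus JA and 0.04 in PLM versus SNI, with 0 of 9 called.

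The summed level of the Schwann cell genes ranged far more widely than the level of any member. It was 242.5, 81.4 and 2278 TPM in JA replicates 1 to 3. Between JA replicates 2 and 3, the samples with the lowest and the highest sum of all 9, the members also made by Schwann cells differed in both directions on the centred log2 scale. Mbp was at 15.29 in both, Mag at 9.65 and 9.55, Cnp at 10.39 and 10.31, and Mal at 8.76 and 8.89. With the library of the highest sum left out, 2 samples remained in each group. The log2 fold change of Mbp was then -0.19 in SNI versus JA and 0.19 in PLM versus SNI as deposited. As with all samples, 0 of 9 members were called in each comparison on either scale, and the part of nerve root content was not tested.

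**Figure D4:**
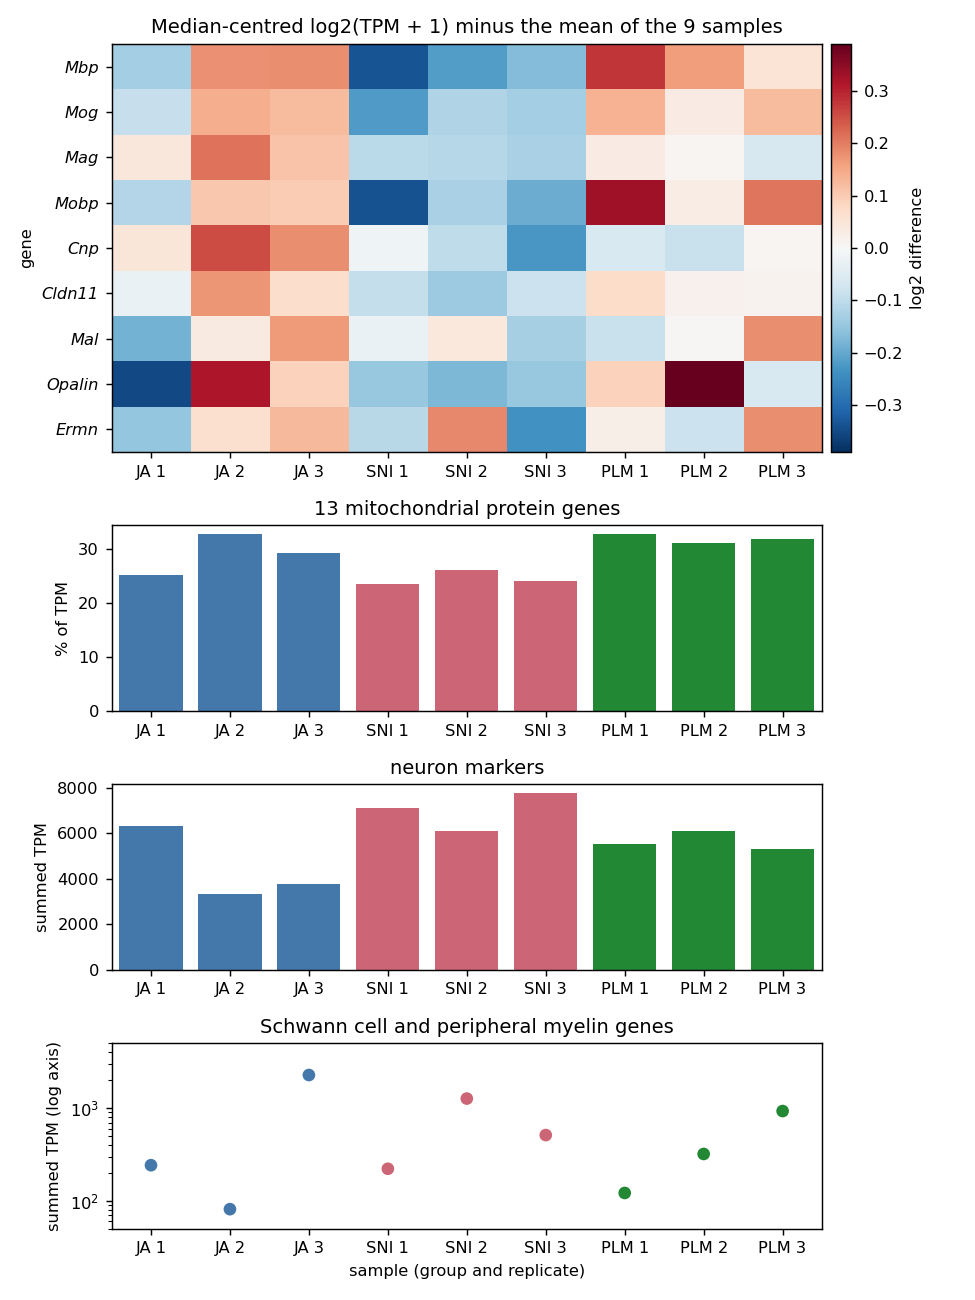
Top: median-centred log2(TPM + 1) of each member in each sample minus its mean over the 9 samples. Below, by sample: the percentage of TPM from the 13 protein genes of the mitochondrial genome, the summed TPM of 16 neuron markers, and the summed TPM of 10 Schwann cell and peripheral nerve genes on a log axis. JA replicate 1 and the 3 SNI samples have mitochondrial shares of 25.3% and 23.7% to 26.1% and are low for most members.

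Other genes of myelinating oligodendrocytes were read from a list of 44 names, of which 42 matched, as 43 loci. In SNI versus JA 33 of 43 loci were below 0 as deposited (median -0.08) and 40 of 43 after centring (median -0.20), and 0 were called on either scale with limma. At an unadjusted p under 0.05, 1 was lower as deposited and 11 after centring, with 0 higher, where 7.1% and 4.83% of all loci passed in either direction. In PLM versus SNI the medians were -0.13 as deposited and 0.12 after centring, and in PLM versus JA, with 42 loci tested, they were -0.18 and -0.05. At the same unadjusted p, 10 loci were lower and 3 higher as deposited in PLM versus SNI, and 1 lower and 14 higher after centring (37.1% and 16.9% of all loci). In PLM versus JA it was 13 lower and 0 higher as deposited, and 3 lower and 2 higher after centring (11.8% and 9.98% of all loci), with 0 called at the adjusted threshold on either scale with limma.

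In PLM versus SNI, 30 of the 43 loci were below 0 and 13 above as deposited, and 9 and 34 after centring. As deposited 5 of 43 were called, all lower, where 13.9% of all loci were called, so their number is no result about oligodendrocyte genes. After centring 0 of 43 were called, where 0.814% of all loci were, and the 5 had adjusted p from 0.141 to 0.568 (limma). They are named because they passed the test, a choice made after their values were seen. Gsn, the actin-severing protein gelsolin, went from 322.2 ± 24.0 to 244.5 ± 8.77 TPM (log2 fold change -0.39, adjusted p = 0.0248, limma). Nfasc, a cell adhesion molecule of nodes and paranodes, went from 64.9 ± 4.46 to 44.5 ± 4.98 TPM (-0.54, adjusted p = 0.0254, limma). Gjb1, a connexin of the myelin sheath, went from 182.5 ± 7.26 to 145.5 ± 10.7 TPM (-0.33, adjusted p = 0.0355, limma). Enpp2, which makes lysophosphatidic acid, and Cntn2, an adhesion molecule of the juxtaparanode, had log2 fold changes of -0.33 (adjusted p = 0.0381, limma) and -0.38 (adjusted p = 0.0490, limma). After centring the differences were -0.15 for Gsn, -0.29 for Nfasc, -0.08 for Gjb1, -0.09 for Enpp2 and -0.13 for Cntn2. Nfasc and Cntn2 are also expressed by neurons.

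By the smallest p on centred values, the genes named in SNI versus JA were Klk6, a secreted protease of oligodendrocytes, Gjb1 and Ptgds, a prostaglandin synthase. Klk6 was at 413.2 ± 19.2 TPM in JA and 344.1 ± 18.6 in SNI, a centred log2 fold change of -0.39, with -0.30 for Gjb1 and -0.33 for Ptgds (adjusted p = 0.889 for each, limma). As deposited these were -0.26, -0.17 and -0.21 (adjusted p = 0.614 for each, limma). In PLM versus SNI they were Prr18, Tspan2, a tetraspanin of the sheath, and Ppp1r14a, a phosphatase inhibitor. Prr18 was at 46.8 ± 1.26 TPM in SNI and 54.5 ± 2.45 in PLM, a centred difference of 0.46 (adjusted p = 0.0636, limma). Tspan2 followed at 0.47 (adjusted p = 0.0824) and Ppp1r14a at 0.44 (adjusted p = 0.0845, limma). As deposited the differences were less than 0.5 times as large, at 0.21 for Prr18 (adjusted p = 0.0591), 0.22 for Tspan2 (adjusted p = 0.149, with overlap) and 0.20 for Ppp1r14a (adjusted p = 0.0833, limma). In PLM versus JA they were Enpp6, Gjb1 and Tspan2. Enpp6, a choline phosphodiesterase of newly forming oligodendrocytes, was at 34.4 ± 2.30 TPM in JA and 17.0 ± 2.19 in PLM, a centred log2 fold change of -0.86 (adjusted p = 0.189, limma), with -0.38 for Gjb1 (adjusted p = 0.437) and 0.33 for Tspan2 (adjusted p = 0.494). As deposited these were -0.98 (adjusted p = 0.106), -0.50 (adjusted p = 0.266) and 0.20 (adjusted p = 0.461, limma).

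Of the other cell types, the 12 astrocyte markers stood out in PLM versus SNI, with 11 lower at an adjusted p under 0.05 as deposited and 9 after centring, where 13.9% and 0.814% of all loci were called in either direction and 0 of 9 myelin members were. The 11 microglia markers summed to 510.5 to 614.4 TPM in JA, 480.7 to 528.6 in SNI and 481.1 to 554.3 in PLM. In SNI versus JA 8 of the 11 were below 0 as deposited (median -0.08) and 9 after centring (median -0.20). After centring 4 were lower at an unadjusted p under 0.05, which 4.83% of all loci passed in either direction, and 0 were called with limma. In PLM versus SNI as deposited, 4 of the 11 were below 0 and 7 above (median 0.04), with 1 called lower. After centring 10 were above 0 (median 0.29), and 0 were called with limma. At an unadjusted p under 0.05, 7 of these centred markers were higher and 1 lower, where 16.9% of all loci passed in either direction. The centred medians of the microglia markers thus had the signs of the members' medians in both comparisons. The 7 endothelial markers matched were all below 0 in SNI versus JA and all above 0 after centring in PLM versus SNI, where 1 was called higher. For oligodendrocyte precursor genes, 1 of 8 was called lower in PLM versus SNI as deposited and 0 after centring. Their parts in the members' values were not tested.

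The genes most like the members in profile were sought among 7229 loci with a symbol and a mean of at least 10 TPM, by Pearson's r over the 9 samples with the mean centred level of the members. The 10 highest were Ppp1r14a (0.976), Evi2a (0.970), Cd53 (0.958), Plpp2 (0.957), Marcksl1 (0.956), Ptma (0.953), Aif1 (0.952), Arpc5 (0.951), Clec2g (0.950) and AABR07066180.1 (0.950). Ppp1r14a and Evi2a are on the list of other oligodendrocyte genes. Cd53 and Aif1 are known from microglia and other leukocytes. The correlations share their libraries and their centring, and they carry no test.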

How the data were processed

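Total RNA of 9 spinal cord samples was sequenced after TruSeq library preparation. According to the labels and methods, the authors trimmed reads with fastp 0.19.5, mapped them with HISAT2 and computed expression with StringTie. The authors deposited 1 table of TPM, rounded to 2 decimals. The submitters' notes name the build GRCh38.p13, a human assembly, whereas 32883 of the 34890 identifiers are rat Ensembl genes, so no coordinates were taken from the table. TPM keeps no depth, so depth and counting error are unknown and count tests were not used.

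Groups came from the labels. Pairs of groups (6 samples) were fitted on log2(TPM + 1) with limma 3.58.1 in R 4.3.3 (variance trend, no covariate). Loci entered a fit at a mean of 1 TPM or more, with Benjamini-Hochberg adjustment over all loci at 0.05. Centring set each sample's median log2(TPM + 1) over these loci to a common value. The scale of fold changes is log2(TPM + 1), and errors are SD or, for fold changes, SE. The fit was tested on simulated data. Alternatives were quantile normalization, TPM without mitochondrial genes, a pseudocount of 0.1, no filter or 1 TPM in every sample, a fit of all 9 samples, a replicate block and leaving out each sample. Pair ratios and the fit without the library of each group with the highest Schwann cell sum were added after seeing the data. The members and the gene lists were chosen with earlier results of these data known. Named were all 9 members, the 3 other oligodendrocyte genes with the smallest centred p in each comparison and the 10 loci nearest in profile. Gsn, Nfasc, Enpp2 and Cntn2 were named outside this rule, after their values were seen. Mog and Ermn had no promoter entry. Some genes of the lists are not reported here and were left out of their counts and sums. Python 3.11.15 was used for summaries.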

Additional observations from a re-analysis of the deposited data

How the results depend on the processing

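No member was called at an adjusted p under 0.05 with limma in any comparison, on either scale or under any alternative run (0 of 9 in each), and the smallest adjusted p was 0.0911, for Mag in PLM versus SNI. The median log2 fold change of the members depended on the scaling. From -0.09 in SNI versus JA it moved to -0.2145 centred, -0.1671 with quantile normalization and -0.1836 without mitochondrial genes. From -0.11 in PLM versus SNI it moved to 0.1359, 0 and 0.03669 under the same 3 settings, and from -0.10 in PLM versus JA to 0.02508, -0.08365 and -0.0416. The 0 is the value of Mbp, which its unchanged rank sets under quantile normalization. On centred values with no filter, where the centring median falls on loci near 0 TPM, the medians were -0.124 in SNI versus JA, -0.04497 in PLM versus SNI and -0.0634 in PLM versus JA. With each sample left out in turn, they ranged from -0.124 to -0.05551 as deposited and from -0.2896 to -0.1746 centred in SNI versus JA. In PLM versus SNI they ranged from -0.1282 to -0.04203 as deposited and from 0.1288 to 0.2088, and in PLM versus JA from -0.1821 to -0.05829 and from -0.06488 to 0.08291. The last fell below 0 without JA replicate 1 (-0.06488) and without PLM replicate 3 (-0.03046). Replicate numbers did not pair the samples, since the deviations of same-numbered samples correlated at -0.0461 to 0.126. With a replicate block the median in PLM versus SNI was -0.1114 and 0 of 9 members were called. Depth is unknown, so the counting error of single values cannot be given.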
